A study of Homo sapiens with 6 samples.

Results

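R-loop peaks of quiescent IMR90 fibroblasts were compared with those of proliferating IMR90 fibroblasts. On chromosomes 1 to 22 and X the quiescent list held 9727 of its 9736 peaks and the proliferating list 101607 of 101802, and every one of these peaks entered the comparison. IMR90 is a human embryonic lung fibroblast line, labelled wild type and grown in 2% oxygen. The proliferating cells expressed a control vector. The quiescent cells were made so by starvation, about which, as about any vector in these cells, the sources used here say no more. Hybrids were mapped with MapR, in which an RNase H fused to micrococcal nuclease releases chromatin around RNA-DNA hybrids. Each state had 1 such library, so nothing below separates a difference between states from a difference between 2 libraries, and no p-value was computed. Read depth is unknown, and the number of peaks could not be set against it. Another list, from cells made senescent by ectopic Ras, was used only to look up peaks of the other 2.

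An R-loop forms when a transcript pairs with its template strand and leaves the other DNA strand single. R-loops are known at promoters rich in CpG and near the 3′ ends of genes, where they follow transcription, and RNase H enzymes and helicases remove them. Quiescence is a reversible exit from the cell cycle in which cells of low nutrient or growth factor supply keep transcribing but do not replicate their DNA.

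To show the kind of promoter involved, the 250 bases before the gene start (RefSeq, GRCh38.p14, strand of the gene) are given for the 3 highest quiescent peaks that cover this stretch whole. Capitals mark runs of at least 4 G or 4 C. DYNC1LI1 (chr3:32570859-32571108, minus strand) was 73.2% G or C with 27 CpG, PDE6D (chr2:231781283-231781532, minus strand) 59.2% with 10 and INAFM1 (chr19:47274173-47274422, plus strand) 75.2% with 28. INAFM1 had 10 G runs and no C run, and DYNC1LI1 1 G run and 8 C runs.
DYNC1LI1: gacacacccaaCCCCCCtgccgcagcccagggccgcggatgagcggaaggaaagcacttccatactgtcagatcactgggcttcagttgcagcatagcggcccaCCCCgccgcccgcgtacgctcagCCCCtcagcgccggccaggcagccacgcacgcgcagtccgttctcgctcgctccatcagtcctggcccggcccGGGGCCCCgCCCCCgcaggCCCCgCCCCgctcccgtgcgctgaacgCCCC
PDE6D: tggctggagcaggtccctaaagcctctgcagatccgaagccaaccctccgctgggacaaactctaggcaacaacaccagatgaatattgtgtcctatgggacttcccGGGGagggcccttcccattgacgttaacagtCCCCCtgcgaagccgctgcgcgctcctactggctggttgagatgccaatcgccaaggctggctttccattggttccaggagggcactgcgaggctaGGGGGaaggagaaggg
INAFM1: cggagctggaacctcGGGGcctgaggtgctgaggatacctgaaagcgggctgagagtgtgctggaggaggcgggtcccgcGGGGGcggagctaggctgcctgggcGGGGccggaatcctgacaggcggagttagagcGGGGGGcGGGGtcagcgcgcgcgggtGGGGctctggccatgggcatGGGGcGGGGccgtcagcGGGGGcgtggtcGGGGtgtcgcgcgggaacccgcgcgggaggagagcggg

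For comparison, the same stretch follows for the 3 highest proliferating peaks that cover it at genes with no quiescent peak within 5000 bp. OLA1 (chr2:174248533-174248782, minus strand) was 78.8% G or C with 35 CpG, TMEM160 (chr19:47048625-47048874, minus strand) 60% with 23 and ABRAXAS2 (chr10:124801569-124801818, plus strand) 64.8% with 23.
OLA1: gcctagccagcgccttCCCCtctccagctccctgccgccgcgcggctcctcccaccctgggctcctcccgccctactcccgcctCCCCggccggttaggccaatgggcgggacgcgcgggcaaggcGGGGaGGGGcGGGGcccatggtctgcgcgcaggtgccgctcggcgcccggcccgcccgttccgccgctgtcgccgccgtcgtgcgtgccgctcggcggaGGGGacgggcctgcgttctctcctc
TMEM160: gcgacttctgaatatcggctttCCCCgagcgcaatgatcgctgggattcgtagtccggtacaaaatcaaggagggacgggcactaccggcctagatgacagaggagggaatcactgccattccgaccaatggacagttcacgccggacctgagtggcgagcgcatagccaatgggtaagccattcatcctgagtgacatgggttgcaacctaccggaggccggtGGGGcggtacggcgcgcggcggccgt
ABRAXAS2: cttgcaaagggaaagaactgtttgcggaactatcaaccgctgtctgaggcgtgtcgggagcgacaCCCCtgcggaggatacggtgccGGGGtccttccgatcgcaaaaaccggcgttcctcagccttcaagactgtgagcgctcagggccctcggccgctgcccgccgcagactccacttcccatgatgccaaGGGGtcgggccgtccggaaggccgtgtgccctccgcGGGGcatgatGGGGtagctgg

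Almost every quiescent peak lay within a proliferating peak. Of the 9727 quiescent peaks, 9673 (99.4%, 95% Wilson interval 99.3 to 99.6) shared at least 1 bp with a proliferating peak, and 54 did not. Read from the other list, 8388 of 101607 proliferating peaks (8.26%, 8.09 to 8.43) held a quiescent peak. The proliferating list was thus 10.4 times as long, and it covered 85.2 Mb against 4.12 Mb, 20.7 times as much. These intervals, like all those below, cover counting error only.

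The quiescent peaks were narrow parts of wide proliferating peaks. None of the 9673 touched more than 1 proliferating peak, and 9438 (97.6%) lay wholly inside it. Their width was a median of 17.9% of that of the proliferating peak (quartiles 10.5% and 29.4%), and 73.4% had their centre in the central 50% of its width. A peak wholly inside another cannot have its centre at the edge, so part of this share follows from the widths. Placement beyond that was not tested. Quiescent peaks had a median width of 352 bp (quartiles 255 and 516) and proliferating peaks one of 550 bp (333 and 1030). The proliferating peaks that held a quiescent peak were a median of 1950 bp wide, and those without one 506 bp. In all, 99.2% of the quiescent bases were under a proliferating peak and 4.79% of the proliferating bases under a quiescent one.

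**Figure D1:**
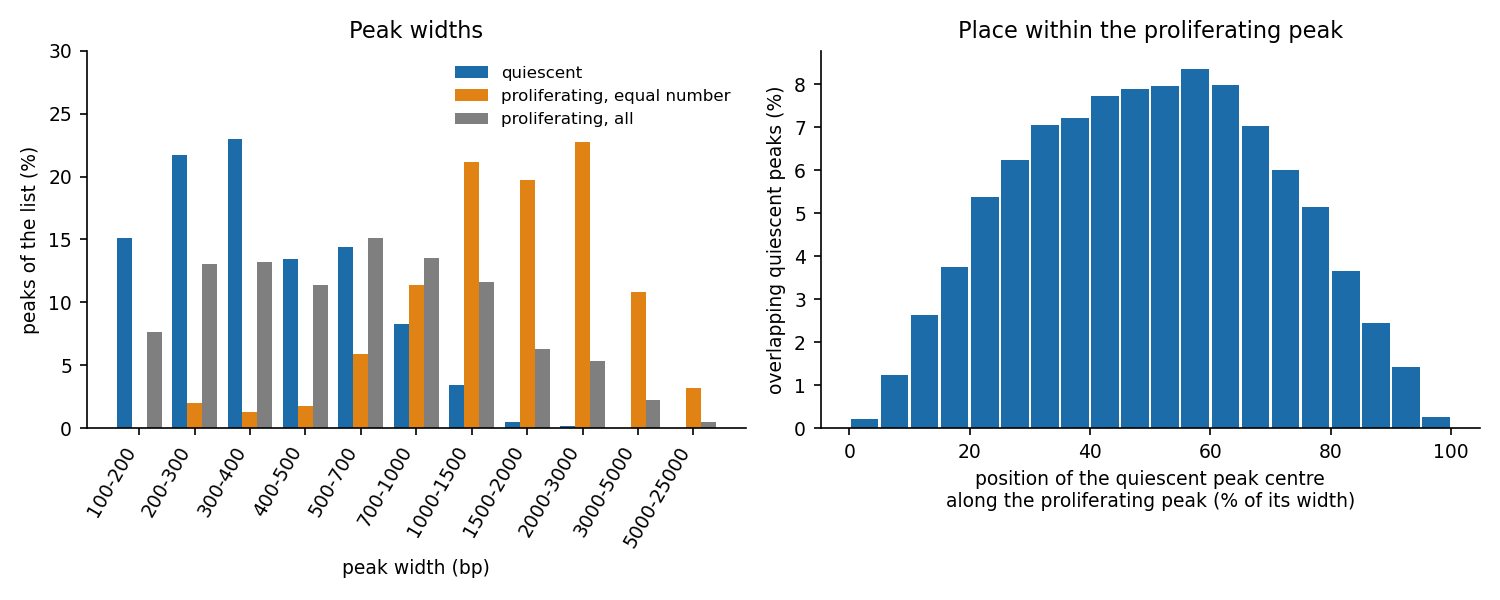
Left, percent of peaks (y axis) by peak width in bp (x axis) in the quiescent list, in the proliferating list and in the equal number of highest-scoring proliferating peaks; right, percent of the 9673 overlapping quiescent peaks (y axis) by the place of their centre along the proliferating peak, from 0 to 100% of its width (x axis). No quiescent peak was wider than 2914 bp. From 25 to 75% of the width each bar holds 6.0% to 8.36% of the centres. Fewer lie near the edges, where the centre of a peak wholly inside cannot fall.

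The lists were then compared at equal length. The 9727 proliferating peaks with the highest score, a whole number that the authors gave to each peak on a scale not stated, had scores from 50 to 151. At the lowest of these scores 110 of 637 peaks were kept, the widest ones, of at least 2466 bp, and 527 of at most 2454 bp were left out. Of the quiescent peaks, 60.4% (59.4 to 61.4) overlapped one of these proliferating peaks, and of the latter 49.7% (48.7 to 50.7) held a quiescent peak. Of the 3853 quiescent peaks outside them, 3799 lay in a proliferating peak of lower score. The strongest proliferating peaks were still wide, with a median of 1659 bp, and covered 4.54 times the length of the quiescent list.

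Whether a proliferating peak held a quiescent peak went with its score and its width. The share was 0.212% (0.173 to 0.260) at scores of 10 to 19, 7.99% (7.54 to 8.47) at 30 to 39, 38.6% (37.3 to 40) at 50 to 59 and 73.4% (66.2 to 79.5) among the 169 peaks of 100 or more. At scores of 50 to 59, peaks under 1000 bp held one in 11.5% of cases (9.94 to 13.3) and peaks of 1000 bp or more in 48.8% (47.2 to 50.4). At 100 or more the shares were 42.1% (27.9 to 57.8) of 38 narrower and 82.4% (75.03 to 88.0) of 131 wider peaks. The 3 highest proliferating peaks differed in this. The first, of score 151 (chr21:8396675-8397453), held none. It lay outside protein-coding and lncRNA genes, and other kinds of gene were not looked up there. Those at SLC2A4RG, a transcription factor gene (chr20:63740252-63741813, score 146), and at FAM138B (chr2:113578208-113579343, score 144) held one, with quiescent scores of 46 and 14.

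Peaks at the ends of genes held a quiescent peak more often than peaks elsewhere. A gene end is here the 1000 bp on both sides of either annotated end of a protein-coding or lncRNA gene. Among all proliferating peaks the shares were 23.6% (23.1 to 24.1) at gene ends, 3.51% (3.35 to 3.67) inside genes and 3.45% (3.23 to 3.69) outside genes. Gene-end peaks were also the stronger ones, with a median score of 33 against 20 in both other classes. Among peaks of score 50 or more and 1000 to 2000 bp wide, the shares were 51.7% (49.8 to 53.6), 35.2% (32.5 to 38.1) and 35.1% (31.2 to 39.2). In the widest group, from 2000 bp, they were 74.4% (72.8 to 76.0), 68.4% (64.7 to 71.9) and 57.5% (50.6 to 64.2). Gene-end peaks had the highest share in all 6 groups of score and width looked at, the 3 width groups at scores of 30 to 49 included.

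**Figure D2:**
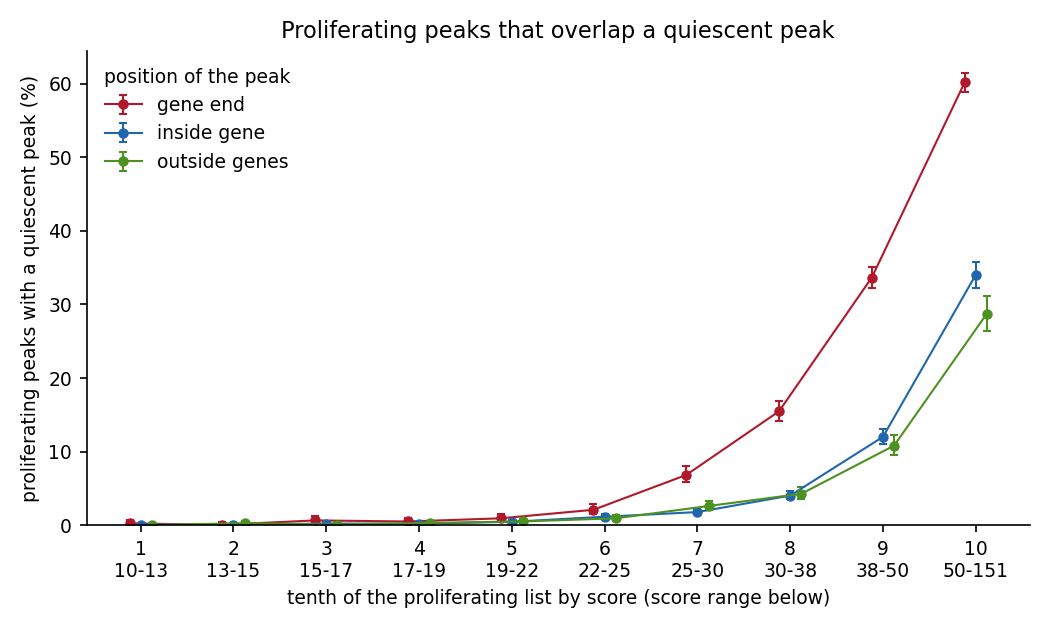
Percent of proliferating peaks that overlap a quiescent peak (y axis) in 10 equal groups of the proliferating list by score (x axis, lowest scores left), for peaks at gene ends, inside genes and outside genes, with 95% Wilson intervals as bars. In the highest group the shares are 60.2%, 34.0% and 28.8%, and in the lowest group they are 0.259%, 0.0963% and 0.0360%.

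By the same classes 60.7% (59.8 to 61.7) of quiescent peaks lay at gene ends, 28.5% inside genes and 10.8% outside genes. In the full proliferating list these shares were 23.7%, 52.2% and 24.1%, and in its highest-scoring 9727 peaks 59% (58.0 to 59.97), 27.5% and 13.5%. At equal length the lists thus had nearly the same gene-end share, although wider peaks touch a gene end more easily. With each peak placed by its centre the gene-end shares were 57.8% and 52.5%. Gene-end windows made up 4.47% of the annotated span of these chromosomes.

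The senescent list had no part in choosing these peaks. It held 85405 peaks over 53.97 Mb, many more than the quiescent list, and was not cut to equal number, so its overlap cannot be set against that of the quiescent list. Of quiescent peaks 94.1% (93.6 to 94.6) overlapped a senescent peak. Among the highest-scoring proliferating peaks, 99.03% (98.7 to 99.3) of those with a quiescent peak and 88.2% (87.3 to 89.1) of those without one overlapped a senescent peak.

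The highest quiescent peaks were narrow. The first, of score 98 and 167 bp (chr3:184561205-184561371), lay with its centre 497 bp before the start of EPHB3, which encodes a receptor tyrosine kinase for ephrins, in a proliferating peak of 9815 bp. The second, of score 87 and 180 bp (chr11:45103056-45103235), lay inside PRDM11, in a proliferating peak of 623 bp. The third, of score 82 and 185 bp (chr14:105301111-105301295), lay within 1000 bp of annotated ends of PACS2, a trafficking protein gene, and BRF1, which encodes a subunit of the RNA polymerase III initiation factor. Of the 50 highest, 29 were at most 200 bp wide, as against 15.3% of all quiescent peaks. Quiescent score and width were only loosely related (Spearman rho 0.14 over 9727 peaks), while in the proliferating list rho was 0.58 over 101607 peaks. Over the 9673 overlapping pairs the 2 scores had a rho of 0.18. Peaks of a list share 1 library, and these coefficients only describe it.

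By gene, 5500 of 19974 protein-coding genes had a gene-end peak in quiescent cells (27.5%), 15078 in proliferating cells (75.5%) and 6054 among the highest-scoring proliferating peaks (30.3%). Of the 15078, 5499 had a quiescent one too (36.5%). The exception was LEFTY1, which encodes an inhibitor of Nodal signalling. Its quiescent peak had a score of 12, and neither a proliferating peak in the locus nor a senescent gene-end peak was listed. Between the quiescent and the equal-number list 3669 genes were shared, which is 66.7% of the quiescent and 60.6% of the proliferating genes. The percent of the locus (the gene with 1000 bp on each side) under peaks was lower in quiescent cells for 16583 genes, higher for 2 and 0 in both for 3389. Gene-end peaks were also found at 1636 of 18177 lncRNA genes in quiescent cells (9%, against 38.4% in proliferating cells), at 42 of 443 tRNA genes (9.48% against 66.4%), at 15 of 1196 snoRNA genes (1.25% against 16.5%) and at 10 of 154 snRNA genes (6.49% against 41.6%). Among the highest-scoring proliferating peaks, equal in number, the shares were 10.9%, 15.8%, 2.93% and 13.6% in the same order.

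The remaining highest gene-end peaks in quiescent cells were those of PELI3 (quiescent score 78), a ubiquitin ligase gene of innate signalling, PHF1 and KIFC1 (70, 1 shared peak), FNIP1 (68), whose product binds folliculin in nutrient signalling, PDHB (68), a subunit of pyruvate dehydrogenase, DYNC1LI1 (67), a dynein light intermediate chain, H6PD (66), an enzyme of the endoplasmic reticulum that makes NADPH, and ZNF628 (65). All of these lay in proliferating peaks, of scores from 46 at H6PD to 95 at PHF1. Scores of different lists have no common scale and were not subtracted.

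A proliferating gene-end peak of any score, with no quiescent peak anywhere in the gene or within 5000 bp of it, was found at 7791 protein-coding genes. The highest proliferating scores among them were those of OLA1 (127), an ATPase of the Obg family, TMEM160 (115), ABRAXAS2 (109), a scaffold of a deubiquitinating complex, the zinc finger genes ZNF583 and ZNF627 (108 each), OSBPL11 (104), an oxysterol-binding protein, ACBD6 (102), COQ6 and FAM161B (101, 1 shared peak), of which COQ6 serves coenzyme Q synthesis, and TGS1 (101), which methylates the caps of small nuclear RNAs. These peaks were 901 bp (ZNF627) to 1758 bp (ACBD6) wide. All 10 genes had a senescent gene-end peak. The reverse case, a quiescent gene-end peak with no proliferating peak so near, was found at 0 of the 19974 protein-coding genes.

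The printed promoters held from 10 (PDE6D) to 35 (OLA1) CpG and at least 1 run of G or C each, and these 6 do not set the sets apart. Over the 15812 protein-coding genes whose promoter was in the RefSeq table, from 250 bases before to 50 after the start, 4357 had a quiescent peak within 1000 bp of the start. Their median G and C content was 67.3% (quartiles 61.3 and 73.0). It was 64.3% (58.8 and 70.7) in the 1915 with one of the highest-scoring proliferating peaks and no quiescent peak, 64.3% in the 5535 with a lower proliferating peak alone, and 49.3% in the 4005 with neither. Median CpG per 100 bases was 9.33, 8.67, 8.33 and 1.33 in the same order. GC skew, the excess of G over C on the gene's strand as a percent of both, had medians of 1.57%, 0.498%, 1.19% and 0.571%, with lower quartiles from -9.09% to -7.98% and upper ones from 9.58% to 11.1%, so the groups overlapped widely.

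Starts with a proliferating peak were put into 5 equal groups by its score. In every group the promoters richest in G and C had the highest share with a quiescent peak. In the highest group the share was 43.4% (32.9 to 54.6) below 50% G and C, 60.6% (55.9 to 65.1) from 50 to 60%, 68.8% (65.9 to 71.5) from 60 to 70% and 72.7% (69.5 to 75.7) from 70%. In the group from score 30 to 41 it was 11.5% (7.57 to 17.1), 15.3%, 24.4% and 28.6% (25.5 to 31.9). In the groups of 41 to 50 and 50 to 61 the lowest class, at 34.3% and 43.0%, was not below the next, at 30.3% and 40.7%, and their intervals overlapped. Promoters with an opposite start within 1000 bp before their own, which 2898 genes had, held a quiescent peak in 40.6% of cases against 24.6% of the others. Among promoters with a proliferating peak, the only ones in the score groups, the shares were 43.4% and 35.0%. Within the groups of like proliferating score the gap in percentage points was smaller than that. The shares were 69.9% against 67.0% in the highest group and 7.84% against 4.30% in the lowest. In the middle group the order was reversed, with 36.4% against 38.3%.

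Short motifs, searched on both strands of the same 300 bases, were spread as follows. GGGCGG, the GC box, was in 58.5% of all promoters, 76.8% of those with a quiescent peak, 72.0% of those with a high-scoring proliferating peak alone and 21.7% of those with neither. TATAAA was in 9.64%, 3.83%, 5.01% and 21.1%. CCAAT was in 36.3%, 35.9%, 41.5% and 38.2%, and CCGGAAGT, bound by ETS factors, in 6.20%, 8.29%, 9.82% and 0.524%. The other 6 motifs, which were the NRF1 core GCGCATGC, the cyclic AMP element TGACGTCA, the YY1 motif AAGATGG, the E-box CACGTG, the AP-1 motif TGACTCA and the E2F motif TTTCGCGC, were in 0.816% to 8.87% of all promoters and in 0.849% to 10.6% of those with a quiescent peak. A match describes the letters only.

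Around gene starts the quiescent peaks formed a narrower band than the proliferating peaks. The band counts bases under peaks, so narrower peaks give a narrower band. Median widths were 352 bp in the quiescent, 1659 bp in the highest-scoring proliferating and 550 bp in the full proliferating list. A difference in position apart from width was not tested. Coverage was highest 100 bp inside the gene in each list, at 13.1% of promoters for quiescent, 28.6% for the highest-scoring proliferating and 65.8% for all proliferating peaks. It was at least 50% of that maximum from -400 to 400 bp for quiescent peaks and from -800 to 1100 bp for both proliferating sets. In each list more promoters were covered at 1000 bp inside the gene than at 1000 bp before it, with 2.89% against 1.31% for quiescent, 17.5% against 12% for the highest-scoring and 39.7% against 25.8% for all proliferating peaks.

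**Figure D3:**
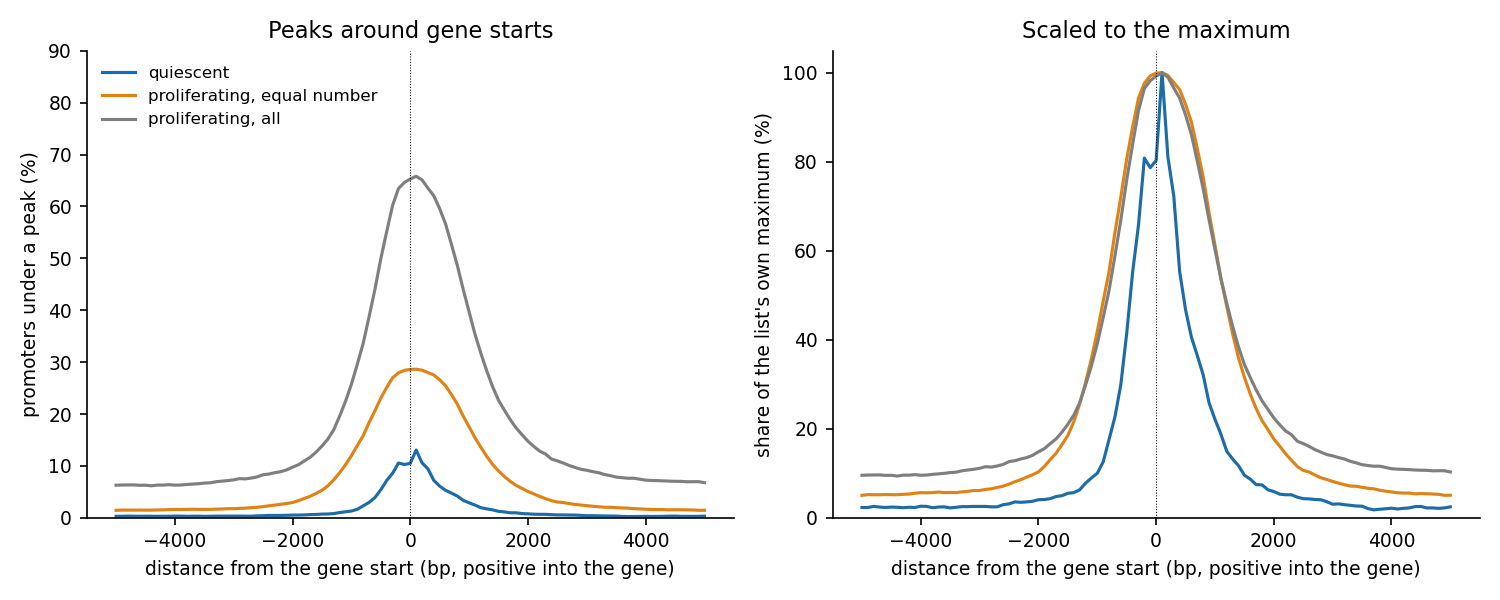
Percent of 15812 promoters under a peak (y axis, left panel) at each distance from the gene start in bp (x axis, positive into the gene), and the same as percent of each list's own maximum (right panel). The quiescent curve peaks at 13.1% and is narrower than both proliferating curves, whose peaks are wider.

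Some broad proliferating peaks were broken into several quiescent peaks. Of the 8388 proliferating peaks with a quiescent peak 7344 held 1 and 1044 held 2 or more. The most, 7 each, were found at CCND1, the gene of cyclin D1 (chr11:69635423-69649053, 13631 bp), where the 7 quiescent peaks covered 15.6% of the width, and at BCL9L, a cofactor gene of Wnt signalling (chr11:118915398-118926542, 11145 bp), where they covered 35.0%. TNRC18 had 6 (chr7:5417248-5430300, 16.9% covered). Those with 5 included VEGFA, the gene of a vascular growth factor (43.5%), PDGFRB, a platelet-derived growth factor receptor (23.8%), LOXL1, which crosslinks elastin (29.1%), EPHB3 (19.7%), TNS2 (37.1%), SEPTIN9 (32.1%) and MRGPRF (71.6%). In the senescent list 7 separate peaks lay in the CCND1 stretch and 1 in that of BCL9L.

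**Figure D4:**
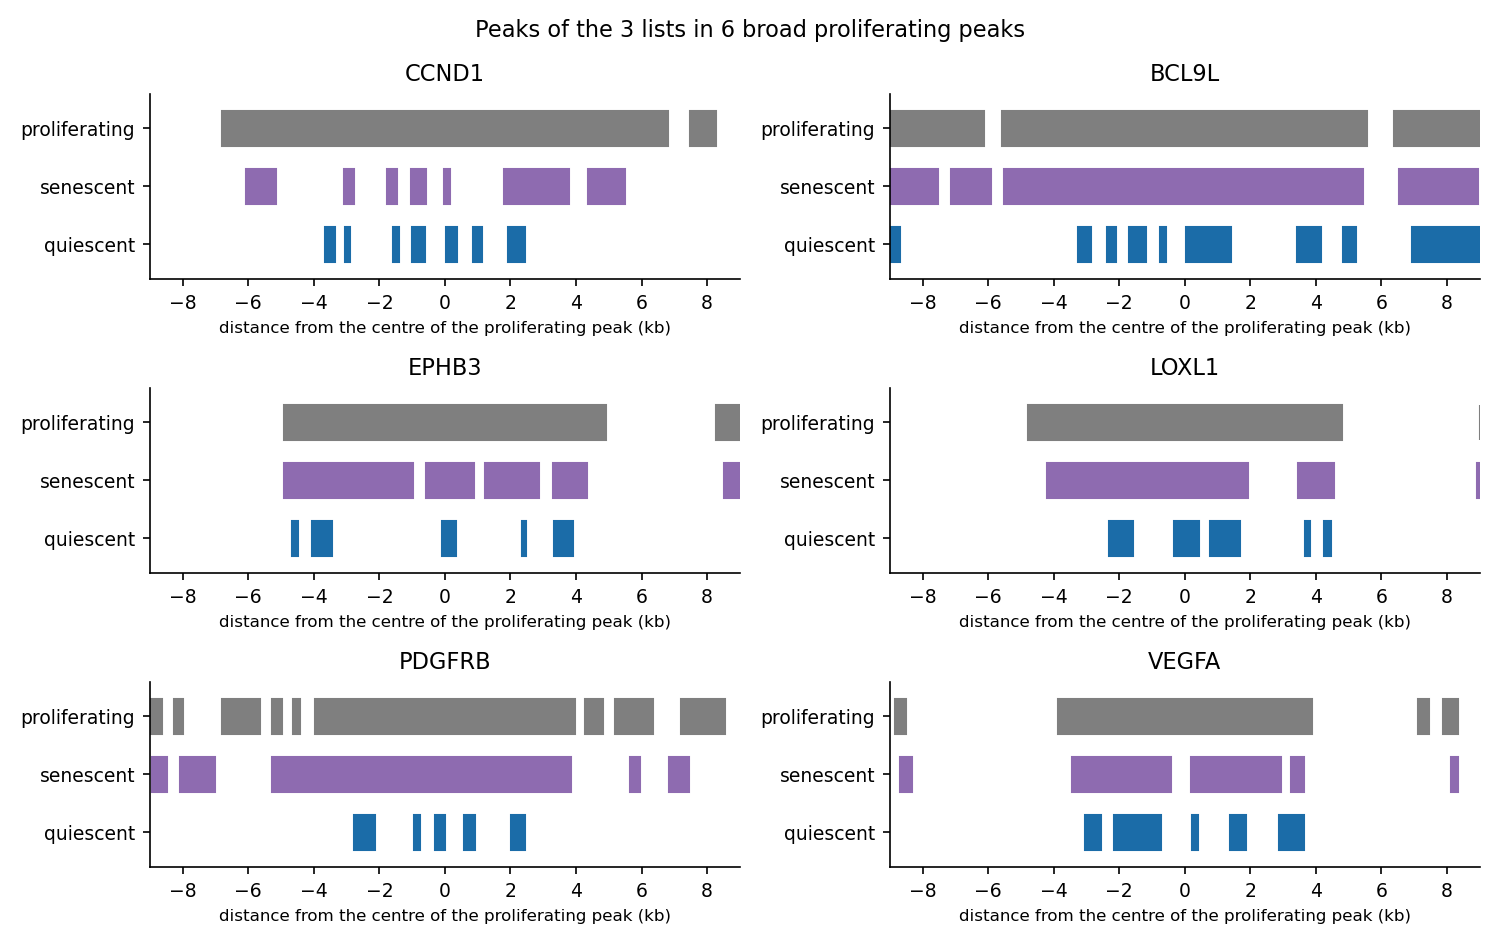
Peaks of the proliferating, senescent and quiescent lists (rows) in 6 broad proliferating peaks, drawn as boxes by distance from the centre of the proliferating peak in kb (x axis). The single proliferating peak at CCND1 contains 7 quiescent and 7 senescent peaks.

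Gene lists that a starved fibroblast could be thought to use differently were counted, with scores given as quiescent and then proliferating. Each score is the highest of its list at either gene end, so both scores of a gene need not come from the same place. Over all protein-coding genes 27.5% had a quiescent gene-end peak and 30.3% one among the highest-scoring proliferating peaks. Of genes with any proliferating gene-end peak 36.5% had a quiescent one. Immediate early genes and feedback genes of MAPK signalling, induced by growth factors, had a quiescent gene-end peak in 21 of 34 members (61.8%, 45.0 to 76.1, against 27.5% of all protein-coding genes). They had one in 22 members among the highest-scoring proliferating peaks and in 33 with all proliferating peaks. Of these 33 members 63.6% had a quiescent one. The list's median proliferating gene-end score was 56, as against 46 over all genes. With quiescent peaks from the median score up, 8 of the 34 members had one, and 15.3% of all protein-coding genes did. At that setting the immediate early list was not the highest, as fibroblast matrix and cytoskeleton genes had 12 of 37. EGR1, a zinc finger factor induced by serum, had scores of 55 and 72, SPRY2, a feedback inhibitor of Ras signalling, 35 and 41, and MYC 32 and 58. FOSL2 (proliferating score 66) and FOSB (58), both subunits of AP-1, had no quiescent peak.

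Genes of the amino acid response and ATF4 targets had a quiescent gene-end peak in 15 of 26 members (57.7%, 38.95 to 74.5) and a high-scoring proliferating one in 14. CHAC1, a glutathione-degrading enzyme, had 40 and 80, PSAT1, an enzyme of serine synthesis, 30 and 51, and ATF4 itself 16 and 53. DDIT3 (59), a stress transcription factor, and SLC7A5 (46), an amino acid transporter, had none. Fibroblast matrix and cytoskeleton genes had 21 of 37 (56.8%, 40.9 to 71.3) and the same number in the equal-number list. COL1A1, a chain of type I collagen, had 39 and 62 and LOX, which crosslinks collagen, 32 and 54. COL1A2 (52), the other chain of that collagen, and TPM1 (56), a tropomyosin, had none. Of members with a proliferating gene-end peak 60% had a quiescent one in both gene lists, as against 36.5% of all such genes. The median proliferating gene-end score was 52 in both, as against 46 over all genes.

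Translation factor and nucleolar genes had 20 of 42 (47.6%, 33.4 to 62.3; 17 in the equal-number list). EIF3C (59 and 44), whose reads could be split with a near-identical copy, and EIF3I (38 and 29), both subunits of an initiation factor, had one, and RRN3 (72), a factor of RNA polymerase I, and EIF3L (70) had none. FOXO, autophagy and lysosome genes had 15 of 33 (45.5%, 29.8 to 62.0; 12). SESN1, a stress-induced inhibitor of growth signalling, had 42 and 65 and ATG14, an autophagy initiation subunit, 41 and 44. FOXO3 (58) and the cathepsin gene CTSL (75) had no quiescent peak, and PDK4 had none in either list. Of members with a proliferating gene-end peak 47.6% and 46.9% of these gene lists in turn had a quiescent one, as against 36.5% of all such genes.

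The next gene list held quiescence genes, CDK inhibitors and the DREAM complex, which represses cell cycle genes in resting cells. It had 13 of 30 in the quiescent and 13 in the equal-number list (each 43.3%, 27.4 to 60.8), with 8 in both. TOB1, an antiproliferative gene, had 34 and 60 and CDKN2D, the p19 inhibitor, 32 and 62. DYRK1A (76), the kinase that assembles DREAM, and RBBP4 (69), one of its subunits, had no quiescent peak. CDKN1B, the p27 gene, had a proliferating score of 42 and 50.3% of its locus covered, CDKN1A, the p21 gene, 42 and 50.8%, and TXNIP 45 and 14.96%. All 3 had no quiescent peak. Sterol and fatty acid synthesis genes had 12 of 29 (41.4%, 25.5 to 59.3; 15). The master regulators SREBF1 (53 and 68) and SREBF2 (38 and 52) had one, and INSIG2 (68), whose product retains the SREBP complex in the endoplasmic reticulum, had none. Of members with a proliferating gene-end peak 43.3% and 42.9% of these gene lists in turn had a quiescent one, as against 36.5% of all such genes.

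Cell cycle and replication genes had a quiescent gene-end peak in 11 of 40 members (27.5%, 16.1 to 42.8) and a high-scoring proliferating one in 18, of which 5 were the same genes. CDC45, a subunit of the replicative helicase, had 27 and 45 and CDK2 21 and 59. The CDK2 quiescent peak lay in a proliferating peak of score 50. CDT1 (81), a replication licensing factor, FOXM1 (78) and MKI67 (29) had none. Glycolysis and hypoxia genes had 11 of 37 (29.7%, 17.5 to 45.8) against 18, with 8 in both. The glucose transporter gene SLC2A1 had 37 and 71 and TPI1, triosephosphate isomerase, 35 and 87. The TPI1 quiescent peak lay in a proliferating peak of score 48. LDHA (72), lactate dehydrogenase, and ALDOC (56) had none. The intervals of these lists' quiescent and equal-number shares overlapped. Among members with a high-scoring proliferating gene-end peak, 27.8% of the cell cycle and 44.4% of the glycolysis list had a quiescent one. Over all protein-coding genes this share was 60.6%. In the other gene lists it ran from 33.3% (histones, 2 of 6) to 100% (tissue markers, 1 of 1). Of members with a proliferating gene-end peak 28.2% and 31.4% of these gene lists in turn had a quiescent one, as against 36.5% of all such genes.

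Replication-dependent histone genes, which supply histones in S phase, had a quiescent gene-end peak in 3 of 61 members (4.92%, 1.69 to 13.5), as against 58 in the full proliferating list and 6 in the equal-number list. With gene-end windows of 3000 bp the quiescent count was 5. Of the 58 members with a proliferating gene-end peak 5.17% had a quiescent one, as against 36.5% of all such genes. The 3 were H1-5 (39 and 60), H4C14 (25 and 36), which has near-identical copies, and H2BC12 (20 and 56), the last named after its value was seen. Proliferating peaks on histone genes covered most of the locus and had low scores. The mean covered locus was 67.1% (SD 25.6 across 61 genes) in proliferating and 0.386% (SD 1.86) in quiescent cells. Over all protein-coding genes these means were 12.6% and 0.9785%. The locus of a short gene such as H4C14 (chr1:149832657-149833052) is mostly the 1000 bp on each side, so 1 peak can cover much of it. The median proliferating gene-end score of histone genes was 32, as against 46 over all genes. H2AC16 (60) and H4C9 (56) had no quiescent peak in their locus. The proliferating peak counted for H2AC16 is, however, the one that held the quiescent peak of H1-5. Several of these genes share peaks, as H1-5 and H2AC16 do in proliferating cells, so they are not separate observations.

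Ribosomal protein genes had 26 of 79 (32.9%, 23.6 to 43.9; 30 in the equal-number list), with RPL15 at 44 and 52, RPL35 at 32 and 40, and no quiescent peak at RPL27 (68) or RPL23A (66). Oxidative phosphorylation genes had 19 of 52 found (36.5%, 24.8 to 50.1; 22), with SDHA at 32 and 41, CYC1 at 29 and 46, and none at ATP5MK (81) or NDUFV2 (79). R-loop factors had 11 of 32 (34.4%, 20.4 to 51.7; 14). Of members with a proliferating gene-end peak 33.3%, 38% and 34.4% of these gene lists in turn had a quiescent one. These shares were near the 36.5% of all such genes. SRSF1, a splicing factor, had 44 and 64, and METTL3 (61) and DDX19A (85) had none. The SRSF1 quiescent peak lay in a proliferating peak of score 50. XPO1, the nuclear export receptor named in the series title, had 33 and 80, with 2 quiescent peaks over 0.902% of its locus against 4.73% in proliferating cells. DDX1, the helicase gene of the title, had 16 and 77, and 1.62% against 2.59%.

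Genes of the secretory phenotype of senescent cells had 13 of 40 in the quiescent and 13 in the equal-number list (each 32.5%, 20.1 to 48.0). The same 11 genes were in both. MMP14, a membrane protease, had 37 and 80 and IL11 34 and 71, and PLAUR (64) and CXCL6 (52) had none. Splicing factors had 13 of 42 (31.0%, 19.1 to 46.0; 15), with SF3A1 at 49 and 125 and none at SNRPD2 (66) or HNRNPL (63). Nucleic acid sensing and interferon genes had 6 of 31 (19.4%, 9.19 to 36.3; 9), with IRF9 at 44 and 61, MAVS at 26 and 80, and none at IRF3 (62) or TBK1 (58). Of members with a proliferating gene-end peak 35.1%, 31.0% and 24% of these gene lists in turn had a quiescent one, as against 36.5% of all such genes. Markers of other tissues had 1 of 40 (2.5%, 0.443 to 12.9; 1; 3 with windows of 3000 bp), SFTPC of lung alveolar cells (23 and 82), while CD4 (49) and CD8A (47) had none. The quiescent peak counted for SFTPC (chr8:22164469-22165614) lay mostly past the annotated gene end at 22164479. Of the markers with a proliferating gene-end peak 4% had a quiescent one, as against 36.5% of all such genes. Their median proliferating gene-end score was 26, as against 46 over all genes, and the gene lists were not matched by score. A peak at a gene does not measure its expression, so these genes do not check the cell type.

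**Figure D5:**
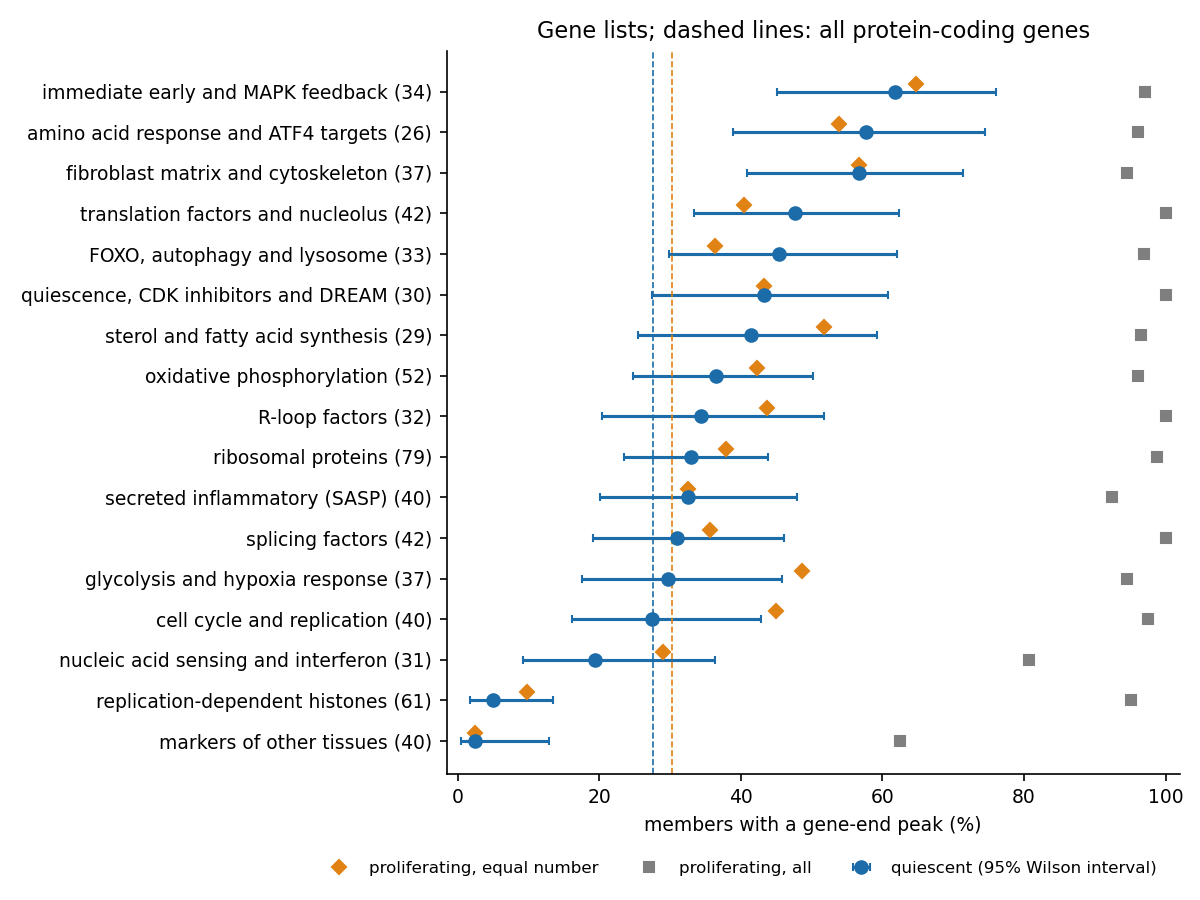
Percent of the members of each gene list with a gene-end peak (x axis) in the quiescent list (circles with 95% Wilson intervals), in the equal number of highest-scoring proliferating peaks (diamonds) and in all proliferating peaks (squares); list sizes are in brackets and dashed lines mark all protein-coding genes (27.5% and 30.3%). Immediate early genes are highest at 61.8% and tissue markers lowest at 2.5% in quiescent cells.

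Quiescent peaks tended to be more frequent, relative to proliferating peaks, on chromosomes denser in genes. Chromosome 19 had 681 quiescent and 4667 proliferating peaks, or 14.6 per 100, and chromosome 17 had 11.5 per 100. Chromosome 18 had 106 and 1783, or 5.95 per 100, and chromosome 21 had 6.90. Over the 23 chromosomes this ratio and the number of protein-coding genes per Mb had a Spearman rho of 0.69, given as a description of 1 pair of libraries. Of 2624 bins of 1 Mb with a proliferating peak 1935 (73.7%) had a quiescent peak, and no bin had a quiescent peak alone. The bin with the most quiescent peaks, chr17:7000001-8000000, had 41 quiescent and 134 proliferating peaks and 63 protein-coding genes. The bin with the most proliferating peaks and no quiescent one, chr2:234000001-235000000, had 96 and 3 genes.

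The 54 quiescent peaks with no proliferating peak were few, narrow and mostly away from gene ends. Their median width was 221 bp and their median score 18, as against 353 bp and 20 in the others. Of these peaks 9 lay at gene ends, 25 inside genes and 20 outside genes, and 17 were within 1000 bp of a proliferating peak. A senescent peak overlapped 22 of them (40.7%, 28.7 to 54.0), as against 94.4% (94.0 to 94.9) of the other quiescent peaks. The highest, of score 61 and 309 bp (chr11:26754099-26754407), lay outside protein-coding and lncRNA genes, 23264 bp from the nearest proliferating peak, and had a senescent peak. The next ones lay inside DDAH1 (chr1:85569092-85569228, score 42), an enzyme gene of nitric oxide metabolism, 229 bp from a proliferating peak, and inside AFG2A (chr4:123103168-123103304, score 40). Each was 137 bp wide, the smallest width in the quiescent list, and had no senescent peak. The smallest width in the proliferating list was 195 bp.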

How the data were processed

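The data were the authors' deposited peak lists of the proliferating, quiescent and, for look-up, senescent RNase H libraries; the 3 GST-MNase background libraries are not analysed here. The build was GRCh38, and the reads went through Bowtie2 2.4.5, MACS2 2.2.7.1 and FastQC 0.11.9, per the submitters' processing notes, which leave out settings, read filters and the control for peak calling. A list stands for 1 library. The unit used is the deposited score of each peak, a whole number of at least 10 on an unstated scale, used for ranking and selection inside 1 list alone.

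Peaks overlapped at 1 bp or more, and equal-score peaks at the equal-number limit were taken by larger width. Genes came from RefSeq for GRCh38.p14 (59098 used, 19974 protein-coding) and starts and sequences from its promoter table, which gives 1 start per gene. Shares have 95% Wilson intervals (Python 3.11.15, statsmodels 0.14.6). Overlap code was tested on simulated intervals. The members, the 17 gene lists and the naming rule were chosen with earlier results of these data known. The rule takes the 10 highest quiescent gene-end genes, the 10 highest with a peak in 1 state and none within 5000 bp in the other, up to 2 with and 2 without a quiescent peak per list, the 3 highest peaks per list and 10 genes by name; genes of broad proliferating peaks, INAFM1 and PDE6D were named after their values were seen. Some genes that the rule takes are not reported here. Of 686 list entries 1 was not found. Alternatives covered overlap, score, window, density, length and ties.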

Additional observations from a re-analysis of the deposited data

Results flagged for a closer look

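Peaks on unplaced or unlocalized contigs were outside the comparison and are given because they show signal in sequence not used above. The quiescent list held 9 such peaks and the proliferating list 162. Of the 9, 8 overlapped a proliferating peak. They lay on 5 contigs, with 3 each on GL000195.1 and GL000205.2.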

How the results depend on the processing

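With at least 50% of both peaks required to overlap, the quiescent share was 5.99%, the proliferating share 0.574% and both equal-number shares 3.65%, as narrow peaks inside wide ones cannot meet it. Within 1000 bp the first 2 shares were 99.6% and 9.38%. With each list limited to scores from its median up they were 98.7% and 8.83%, and the equal-number shares 43.3% (quiescent) and 38.1% (proliferating). Without the densest 1% of 1 Mb bins and peaks over 20000 bp, the proliferating share was 8.02% and the equal-number shares 58.5% and 48.6%. At equal covered length, with 2071 proliferating peaks, they were 17.9% and 67.1%. Ties broken by smaller width left them within their intervals.

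The gene-end share of quiescent peaks was 50.9% with windows of 500 bp, 72.3% with 3000 bp and 57.8% by peak centre, a choice made after seeing the data. For proliferating peaks it was 19.6%, 36.8% and 20.2%, then 33.4% from the median score up and 59% with equal numbers. From the median score up 3061 genes had a quiescent gene-end peak, and with equal numbers 6054 had a proliferating one. Windows of 500 and 3000 bp moved the full-list counts, 5500 quiescent and 15078 proliferating, by less than 1.5 times. Of quiescent peaks without a proliferating one 24 had at least the median score. With 3000 bp windows 15 of the 17 list counts were within 1.5 times, the exceptions being histones (3 to 5) and tissue markers (1 to 3), and with peaks from the median score up 4, where the share of all genes was 15.3%. No paired analysis was possible because each state has 1 library. Depth is unknown.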
